A study of Mus musculus with 18 samples.

Results

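The insulin-like growth factor (IGF) genes described here are the ligands Igf1 and Igf2, the receptor Igf1r and the 6 high-affinity binding proteins Igfbp1 to Igfbp6, together with Igfbp7, a related secreted protein. A gene was included when its symbol stood in the gene name column of the array scanner files, and every such probe was kept, whether or not it changed. This gave 10 of the 27962 gene names and 17 of the 41174 probes on the array. All 17 probes were among the 29803 that were well above background in the sample channel on at least 3 of the 18 arrays and were therefore tested. Igf1 had 3 probes, Igf2, Igf1r, Igfbp3, Igfbp4 and Igfbp5 had 2 each, and the other genes had 1.

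IGF1 and IGF2 are secreted growth factors that act through the IGF1 receptor, a tyrosine kinase that signals through IRS adaptors to the PI3 kinase and MAP kinase cascades. Binding proteins hold most of the ligand outside cells, and proteases that cleave them set ligand free. In thyroid cells, IGF1 and insulin act with thyrotropin to support growth and the differentiated state, and stromal cells are a common local source of IGF1 and of binding proteins.

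The study profiled thyroid cells from male and female C57BL/6 mice with or without partial thyroidectomy, the surgical removal of a portion of the gland. Glands were dissociated with collagenase and dispase, and all cells spent 2 days in culture before sorting. They were stained with the DNA dye Hoechst, and the side population, cells that pump the dye out and lose that property with verapamil, was sorted apart from the main population, which retains it. The groups were control side population (CSP, 6 samples), control main population (CMP, 3), side population after surgery (TSP, 6) and main population after surgery (TMP, 3). No group carries a genetic modification, and the age of the mice, the time after surgery and the number of mice behind each sample are not given in the sources used here. The submitters call the samples biological replicates. If some came from shared animals or cultures, the p-values measure only the spread between these samples.

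Each sample was amplified, labelled with Cy5 and hybridised on a two-colour Agilent array beside a Cy3-labelled reference common to all arrays, a commercial RNA mixture of Swiss Webster mouse tissues. A level below is therefore the log2 ratio of sample to reference for 1 probe: 0 means the same signal as the tissue mixture, and levels of different probes cannot be ranked against each other. The share of spots well above background in Cy5 ran from 38.8% to 72% per array, and at most 0.00461% of spots were saturated. Arrays of a group correlated with each other at r = 0.804 to 0.939 for CSP, 0.834 to 0.941 for CMP, 0.672 to 0.978 for TSP and 0.835 to 0.943 for TMP. TSP 1 and TSP 2 stood apart: they correlated at 0.877 to 0.958 with the main population arrays and at 0.653 to 0.755 with the other side population arrays, against their label. Results are therefore given with all arrays and without these 2. The arrays lay on 5 slides, and Cy5 background was 60 to 92.5 intensity units on slides 1 and 5 and 42 to 43 on the others.

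The probes that carry the results are identified by the first 30 of their 60 bases, 5′ to 3′ as the scanner files give them, in lower case throughout because no stretch is singled out. They are shown because they are what hybridised: called probes of Igf1, Igfbp3 and Igfbp7, and the second probes of Igf1, Igf2 and Igfbp3 that allow a comparison within a gene.
Igf1 A_51_P147942: cgcaggatcctttgctgcttgagcaacctg
Igf1 A_52_P536434: tggatgagtgttgcttccggagctgtgatc
Igf2 A_51_P516826: aacatgcattttctggcaaaatcaaagctt
Igf2 A_51_P516833: gacagaaactcaaagagtaaattgttataa
Igfbp3 A_52_P253179: gcagttttccaaaaacacagatttcttttc
Igfbp3 A_51_P228472: tctataagaagaaacgatgccgcccttcca
Igfbp7 A_51_P472292: taacccactaacactttattacagccagct
In mouse build mm7, the 60 bases of the Igf1 probe A_51_P147942 lie at chr10:87488982-87489041 (+ strand) and those of A_52_P536434 at chr10:87471884-87471943. The Igfbp3 probe A_52_P253179 lies at chr11:7158599-7158658 (- strand) and the Igfbp7 probe at chr5:77280659-77280718 (- strand). No gene annotation of that build was used, so exons and untranslated regions are not assigned.

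The first question was how cells of the side population of unoperated glands differed from main population cells. Igfbp7, Igfbp3, Igfbp6 and Igf1 were higher in the side population, by 52-fold, 2.87-fold, 2.6-fold and 2.05-fold. Igfbp4 and Igfbp5 did not pass with all arrays, and passed, also higher, without TSP 1 and TSP 2, which enter this comparison through the shared estimate of the spread. No probe filed under the names Igf2, Igfbp1, Igfbp2 or Igf1r passed in either fit. A probe filed under another name of Igf1r was lower without TSP 1 and TSP 2 (limma adjusted p = 0.0293) and is not among the 17. In all, 4 of the 17 probes had a Benjamini-Hochberg adjusted p under 0.05 (limma), all higher, where 13.2% of all tested probes were called, 6.57% as higher and 6.62% as lower. When TSP 1 and TSP 2 were left out, 6 probes were called, all higher, against 17.3% of all probes, 8.91% as higher and 8.39% as lower. The CSP and CMP arrays did not overlap for 5 of the 17 probes, and for 18.9% of all probes. The 17 probes had a median difference of 0.41 on the log2 scale, against 0.04 for all probes tested. Centring each array on its median in place of loess turned 49.8% of the calls over all probes being higher into 31.4%, and the 2 IGF probes then called, Igfbp6 and Igfbp7, were again higher. Scaling the spread of the arrays to one another left 0 of the 17 probes called, and 2 without TSP 1 and TSP 2 (Igfbp3 and Igfbp7). The 4 differences were above 0 under every alternative run. In sorted samples, fewer cells of a type and less RNA per cell cannot be told apart.

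**Figure D1:**
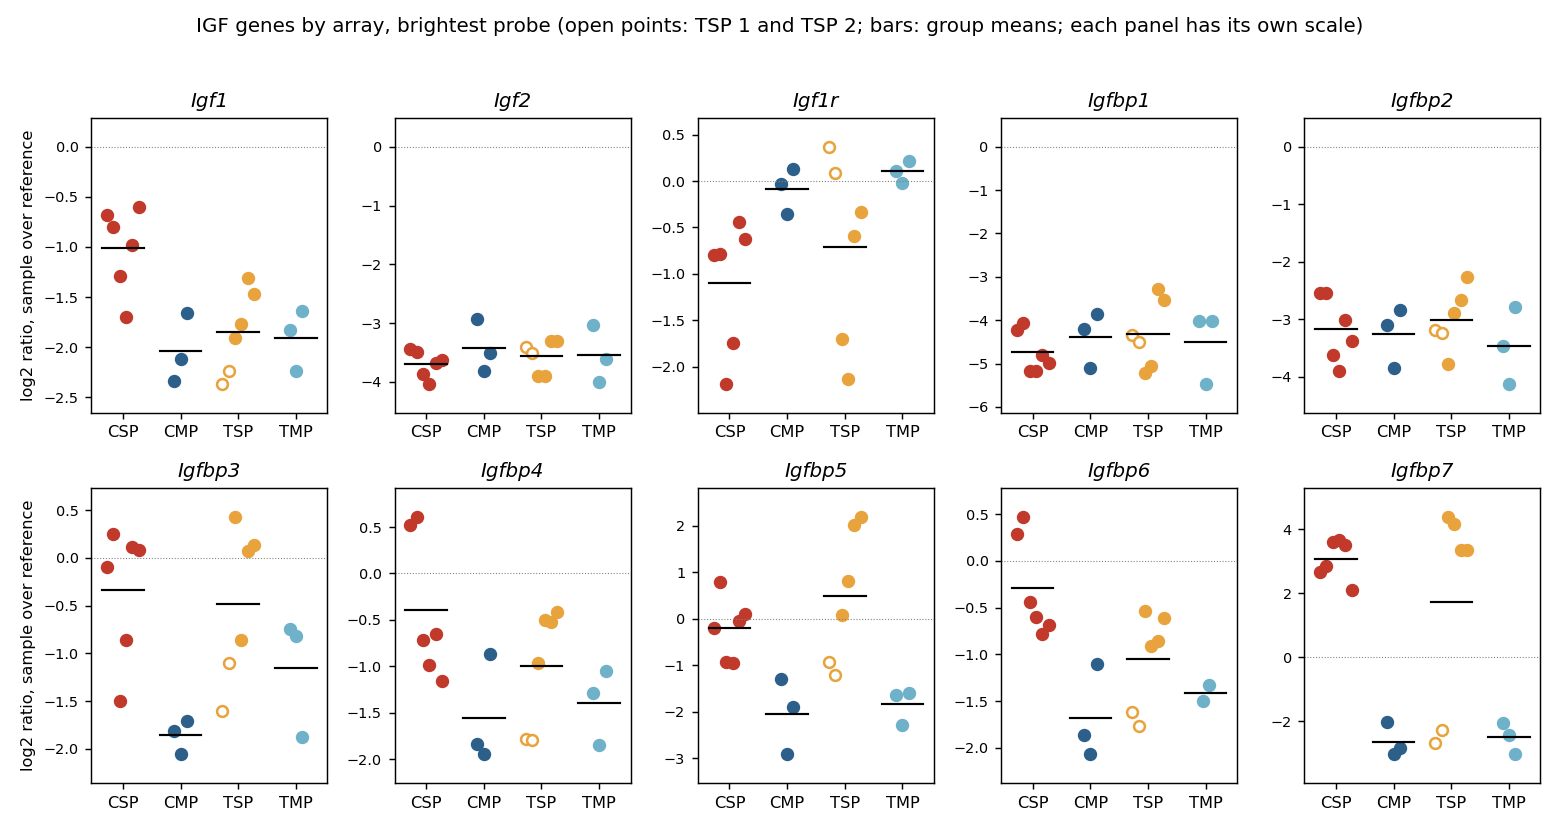
Log2 ratio of sample to reference (vertical axes) for the brightest probe of each of the 10 genes on all 18 arrays, by group; points are arrays, bars are group means and hollow points are TSP 1 and TSP 2. Igfbp7 lies between 2.10 and 4.38 on the CSP arrays and TSP 3 to TSP 6 and between -3.04 and -2.04 on the CMP and TMP arrays, with TSP 1 and TSP 2 at -2.67 and -2.28.

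Among the ligands, Igf1 was measured best by A_51_P147942, which sits in 10 spots on each array (SD between spots 0.06 to 0.27). Its level ran from -1.70 through a median of -0.89 to -0.60 on the 6 CSP arrays and was -2.34, -2.12 and -1.66 on the 3 CMP arrays. After surgery it ran from -2.37 through -1.84 to -1.31 in TSP and was -1.83, -2.24 and -1.64 in TMP. All groups thus sat below the tissue mixture, CSP stood highest, and only CSP 4, at -1.70, reached into the CMP range. The CSP arrays averaged -1.01 ± 0.42 (SD, n = 6), and the mean of the CMP arrays was -2.04 ± 0.35 (SD, n = 3). The difference was 1.04 (SE 0.28, 95% interval 0.44 to 1.63, limma adjusted p = 0.0233), and adjusted p was 0.0111 without TSP 1 and TSP 2. Leaving out CMP 1 ended the call (0.89, adjusted p = 0.124), as did leaving out CMP 2 (1.0, adjusted p = 0.0936), and the same held without TSP 1 and TSP 2 (adjusted p = 0.08 and 0.0541).

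A second Igf1 probe, A_52_P536434, followed the first over the 18 arrays with r = 0.97. It ran from -1.35 through -0.46 to -0.22 in CSP and was -1.64, -1.56 and -1.02 in CMP, and its difference of 0.79 (SE 0.28) missed the threshold (limma adjusted p = 0.0664, or 0.053 without TSP 1 and TSP 2). The third, A_52_P306327, placed at chr10:87420848-87420907 and designed on a separate cDNA, was well above background on 4 arrays. Its CSP and CMP levels differed by 0.12 (limma adjusted p = 0.904).

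Igf2, the growth factor that dominates fetal life and is expressed from the paternal allele, was far below the tissue mixture in every sample. The 10-spot probe A_51_P516826 (chr7:139078075-139078135, - strand; SD between spots 0.04 to 0.30) ran from -4.04 through -3.65 to -3.44 in CSP and was -2.93, -3.82 and -3.50 in CMP. It ran from -3.89 through -3.46 to -3.31 in TSP and was -3.03, -4.0 and -3.61 in TMP. The CSP mean was 12.9-fold and the CMP mean 10.7-fold under the reference, a mixture that includes embryo. The 4 groups overlapped, and CSP differed from CMP by -0.27 (SE 0.25, limma adjusted p = 0.527). The other probe, A_51_P516833, gave 0.53 (SE 0.30, limma adjusted p = 0.271), the opposite sign. The pair correlated at only r = 0.22 over the 18 arrays, so no direction is given for Igf2.

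Igf1r encodes the receptor for both ligands, and A_51_P318365 (chr7:64082649-64082708, + strand) was its well-measured probe. It ran from -2.19 through -0.79 to -0.44 in CSP and was -0.03, -0.35 and 0.13 in CMP. In TSP it ran from -2.13 through -0.46 to 0.37, the highest value being that of TSP 1, and it was 0.11, -0.02 and 0.22 in TMP. Every CSP array lay below every CMP array, but the CSP arrays were spread widely, with the lowest values on slide 3. The difference of -1.01 (SE 0.48) did not pass (limma adjusted p = 0.174, or 0.104 without TSP 1 and TSP 2), and within slide 4, which held both groups, it was -0.18. It was called as lower in 1 alternative, the replicate block without TSP 1 and TSP 2 (-1.20, adjusted p = 0.0219). Probes carried on the array under other names, which RefSeq lists as synonyms of Igf1r, gave -0.93 (A_51_P474538, SE 0.32, limma adjusted p = 0.0602) and -0.83 (A_52_P634111, well above background on 9 arrays, SE 0.30, adjusted p = 0.0697). The former passed without TSP 1 and TSP 2 (adjusted p = 0.0293) and the latter did not (adjusted p = 0.0541). A_52_P668647, also named Igf1r, was well above background on 3 arrays and differed by 0.16 (adjusted p = 0.799).

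Igfbp7, which binds IGFs weakly, binds insulin and collagen, and is abundant in vascular endothelium, separated the populations most among the IGF genes. Its level ran from 2.10 through 3.19 to 3.67 in CSP and was -2.04, -3.04 and -2.83 in CMP. The CSP mean lay 8.36-fold over the tissue mixture and the CMP mean 6.22-fold under it, with no overlap. The difference was 5.70 (SE 1.25, 95% interval 3.08 to 8.32, limma adjusted p = 0.0103). TSP 1 and TSP 2 set most of that error: without them the SE was 0.37 and adjusted p = 5.8e-08. With all arrays the call was lost when CMP 2 was left out (5.5, adjusted p = 0.0579) and under scaling between arrays (5.26, adjusted p = 0.157), and without TSP 1 and TSP 2 it held in both cases.

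Igfbp3 encodes the main carrier of IGFs in serum, and its bright probe A_52_P253179 ran from -1.5 through -0.01 to 0.25 in CSP and was -1.81, -2.06 and -1.71 in CMP. The groups did not overlap, although CSP 3, at -1.5, came near. The difference was 1.52 (SE 0.45, limma adjusted p = 0.0318), with adjusted p = 0.0101 without TSP 1 and TSP 2. Over all arrays it no longer passed when any one of CMP 1 (adjusted p = 0.0982), CMP 2 (0.123), CMP 3 (0.0663), CSP 1 (0.0561), CSP 2 (0.0601), CSP 5 (0.0569) or CSP 6 (0.05) was left out. The second probe, A_51_P228472, was well above background on 5 arrays and on no CMP array. It gave 0.34 (adjusted p = 0.376) and did not follow the first probe (r = 0.06). Its mean CSP signal was 1.06-fold over the lowest signal measurable in CMP, with 3 of 6 CSP arrays well above background.

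Igfbp6, a binding protein that prefers IGF2, was measured by A_51_P374571 and ran from -0.78 through -0.52 to 0.47 in CSP and was -1.86, -2.07 and -1.10 in CMP. All CSP arrays were above all CMP arrays, with the highest levels on CSP 1 and CSP 2. The difference was 1.38 (SE 0.34, limma adjusted p = 0.0159), and adjusted p was 0.00416 without TSP 1 and TSP 2. It no longer passed when CMP 1 was left out (adjusted p = 0.0777), nor when CMP 2 was (adjusted p = 0.0936).

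Igfbp5, a binding protein that attaches to extracellular matrix, gave a large but uneven difference on A_52_P281702 (chr1:73100116-73100175, - strand). It ran from -0.95 through -0.12 to 0.78 in CSP and was -1.30, -2.92 and -1.91 in CMP, with no overlap. The difference was 1.84, or 3.57-fold (SE 0.64, limma adjusted p = 0.0648). It was called without TSP 1 and TSP 2 (SE 0.48, adjusted p = 0.0117), though not when CMP 2 was left out as well (1.4, adjusted p = 0.104). Igfbp5 was called under 9 of 34 alternatives to the fit of all arrays, among them the slide as a block (3.22, adjusted p = 0.00271). The dim probe A_51_P204153, well above background on 4 arrays, gave -0.21 (adjusted p = 0.787).

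Igfbp4, a binding protein that restrains IGF action until it is cleaved, ran on A_52_P257502 (chr11:99161059-99161118, + strand) from -1.16 through -0.69 to 0.61 in CSP and was -1.84, -1.95 and -0.87 in CMP. The 2 highest CSP arrays, CSP 1 and CSP 2, both lay on slide 1. CSP 6, at -1.16, and CSP 4, at -0.99, were below CMP 3. The difference was 1.15, or 2.23-fold (SE 0.43, limma adjusted p = 0.084). It passed without TSP 1 and TSP 2 (SE 0.38, adjusted p = 0.0471) and was 0.67 (adjusted p = 0.151) without slide 1. That call was lost under 15 of 21 further alternatives, with adjusted p up to 0.229. The dim probe A_51_P398971 gave 0.41 (adjusted p = 0.293) and correlated with the first at r = 0.64.

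Igfbp1 and Igfbp2, the binding proteins best known from liver, were low beside the tissue mixture in all 4 groups. Igfbp1 ran from -5.18 to -4.06 in CSP and was -4.20, -5.11 and -3.86 in CMP, a difference of -0.35 (SE 0.45, limma adjusted p = 0.669). Igfbp2 ran from -3.89 to -2.54 in CSP and was -3.10, -3.85 and -2.83 in CMP. Its difference was 0.09 (SE 0.38, adjusted p = 0.907), with a 95% interval from -0.70 to 0.88. Neither passed, and the intervals still allow moderate changes either way.

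**Figure D2:**
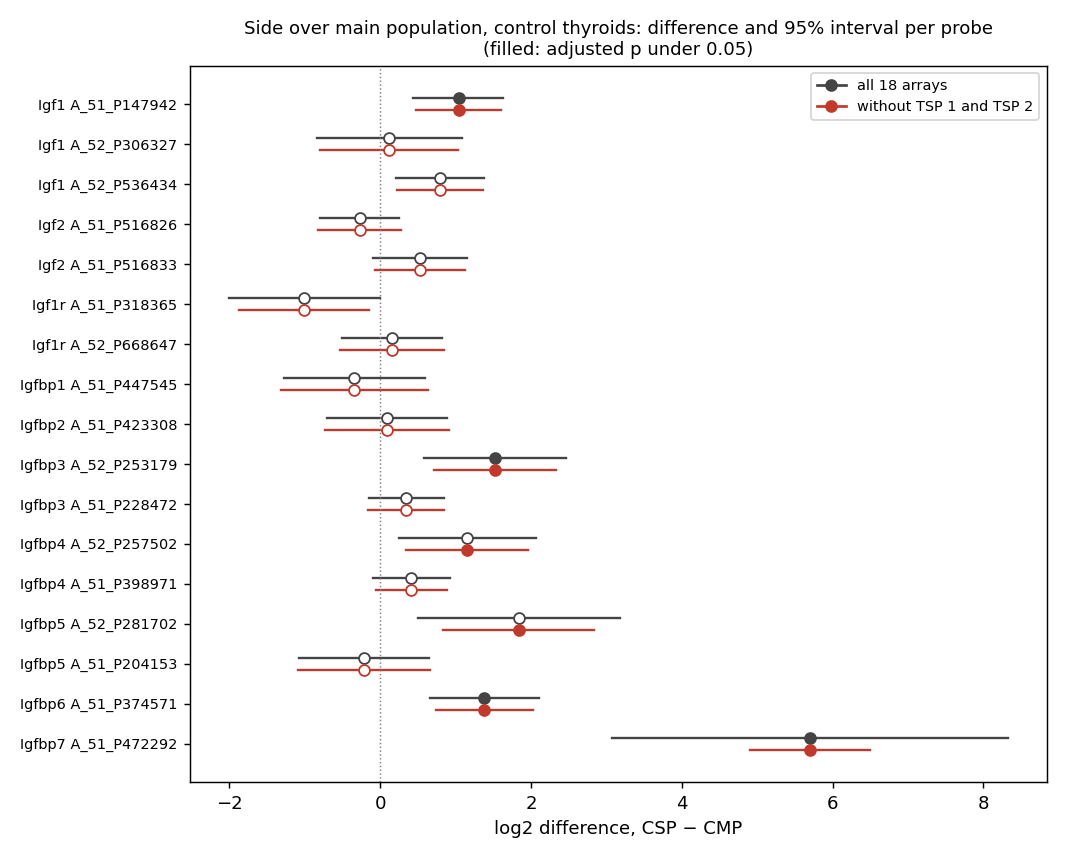
Difference CSP minus CMP (horizontal axis, log2) with its 95% interval for each of the 17 probes, with all 18 arrays and without TSP 1 and TSP 2; filled points had a limma adjusted p under 0.05. Igfbp7 stands at 5.70, the other called probes lie between 1.04 and 1.84, and the probe of Igf1r at -1.01 is not called.

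Slide 4 is the only slide with both control groups, holding CSP 5, CSP 6 and CMP 2. Within it the differences were 1.33 for Igf1, 2.15 for Igfbp3, 2.95 for Igfbp5, 1.33 for Igfbp6 and 5.84 for Igfbp7, the same direction as over all slides, and none passed on these 3 arrays. With the slide as a block, 7 of the 17 probes were called in place of 4, and 8 with the slide as a random block, all higher. The calls over all probes rose as well, to 24.9% (14.5% as higher) and 23.3% (12.4% as higher). Igfbp7, Igfbp3, Igfbp6 and the 10-spot Igf1 probe were called in both, and with the slide as a block without TSP 1 and TSP 2.

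Endothelial and fibroblast markers moved with these genes. Each marker was taken by its brightest probe, by which 7.36% of all genes were called higher in CSP and 7.11% lower. Of the endothelial list, 11 of 12 genes were higher in CSP than in CMP and none lower, and of the fibroblast list 10 of 12. The mean level of the endothelial list ran from 0.79 to 2.33 in CSP, -2.26 to -1.62 in CMP, 0.76 to 1.85 in TSP 3 to TSP 6, -1.90 to -1.87 in TSP 1 and TSP 2, and -2.11 to -1.45 in TMP. That of the fibroblast list ran from -1.47 to 0.99 in CSP, -3.61 to -3.00 in CMP, -0.24 to 1.05 in TSP 3 to TSP 6 and -3.63 to -2.75 in TMP.

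Follicular cell and epithelial markers moved the other way. Of 12 follicular genes 8 were lower in CSP, and all 10 epithelial genes were lower. The follicular mean ran from -0.15 to 1.4 in CSP and from 2.17 to 2.58 in CMP, and the epithelial mean from -1.24 to 2.38 in CSP and from 3.51 to 3.96 in CMP. The sodium iodide symporter gene Slc5a5 was well above background on 0 of 6 CSP arrays, but it was dim in CMP too. Its mean CMP signal (log2 Cy5 7.13) lay below the lowest signal measurable in CSP (7.3), so no direction is given for it. Thyroglobulin, Tg, was well above background on all CSP and CMP arrays and did not pass (-1.18, limma adjusted p = 0.278). Smooth muscle markers were higher for 3 of 10 and lower for 1, and macrophage markers higher for 1 of 12 and lower for 3. C cell markers were higher for 2 of 6, and no adipocyte marker of 5 passed. Beside the 7.36% of all genes called higher and 7.11% called lower, counts this small are no result about these cell types by themselves. The part of these cell types in the IGF differences was not tested.

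The same comparison after surgery asked how TSP differed from TMP. With all 6 TSP arrays no IGF probe passed, and neither did any other probe (0% called by limma, with 3708 of all probes and 3 of the 17 at an unadjusted p under 0.05). Igfbp5 did not overlap between the groups, as did 3.75% of all probes. Without TSP 1 and TSP 2, Igfbp7, Igfbp5 and the dim Igfbp4 probe were higher in TSP, 3 of 17 probes where 12.6% of all probes were called, 6.32% as higher and 6.33% as lower. The groups then did not overlap for 6 of the 17 probes, against 22.6% of all probes. The median difference was 0.56 over the 17 probes and 0.02 over all.

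Igfbp7 was 4.38, 4.16, 3.35 and 3.35 on TSP 3 to TSP 6 and -2.67 and -2.28 on TSP 1 and TSP 2. TMP was at -2.07, -2.43 and -3.02, so TSP 1 and TSP 2 lay within the TMP range and the other 4 far above it. With all arrays the difference was 4.22 (SE 1.25, limma adjusted p = 0.28), and without those 2 it was 6.32, or 79.7-fold (SE 0.40, adjusted p = 7.66e-08).

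Igfbp5 on A_52_P281702 was 0.07, 0.81, 2.02 and 2.19 on TSP 3 to TSP 6, -0.93 and -1.22 on TSP 1 and TSP 2, and -1.64, -2.28 and -1.60 in TMP. Here TSP 1 and TSP 2 were between the other arrays of both groups. The difference was 2.33, or 5.02-fold (SE 0.64, limma adjusted p = 0.28), and without TSP 1 and TSP 2 it was 3.11, or 8.64-fold (SE 0.51, adjusted p = 0.000495). Within slide 5, which holds TSP 5, TSP 6 and TMP 3, Igfbp5 differed by 3.71 and Igfbp7 by 6.37.

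The dim Igfbp4 probe A_51_P398971 was well above background on 2 TSP arrays, TSP 3 and TSP 4, and on no TMP array. The mean signal of TSP 3 to TSP 6 was 1.52-fold over the lowest signal measurable in TMP. That mean includes TSP 5 and TSP 6, where the probe was not well above background. The fitted difference was 0.76 (SE 0.24, limma adjusted p = 0.0496), and the brighter probe gave 0.80 (adjusted p = 0.259). The dim probe's call was lost under 17 of 21 further alternatives, with adjusted p up to 0.335. Igfbp3 differed by 1.1 (SE 0.42, adjusted p = 0.101) and Igfbp6 by 0.69 (adjusted p = 0.283) without those 2 arrays. For Igfbp6, TMP had 2 values, because the spot on TMP 2 was an outlier and was left out. Igf1 differed by 0.06 with all arrays (adjusted p = 0.967) and by 0.29 without TSP 1 and TSP 2 (adjusted p = 0.62). With all arrays, Igf1r differed by -0.82 on A_51_P318365 (adjusted p = 0.521). Its probes under other names each gave -0.2 (adjusted p = 0.877 for A_51_P474538 and 0.864 for A_52_P634111). Neither of these passed without TSP 1 and TSP 2 (adjusted p = 0.357 and 0.49). On A_51_P318365, Igf1r was lower on all of TSP 3 to TSP 6 than on any TMP array, but its difference of -1.29 (SE 0.44) did not pass (adjusted p = 0.0662). It was called as lower under 4 of 21 further alternatives without those 2 arrays: scaling between arrays (-1.42, adjusted p = 0.0268), the replicate block (-1.52, adjusted p = 0.0228), and leaving out TSP 6 (-1.58, adjusted p = 0.025) or CSP 3 (adjusted p = 0.0382).

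**Figure D3:**
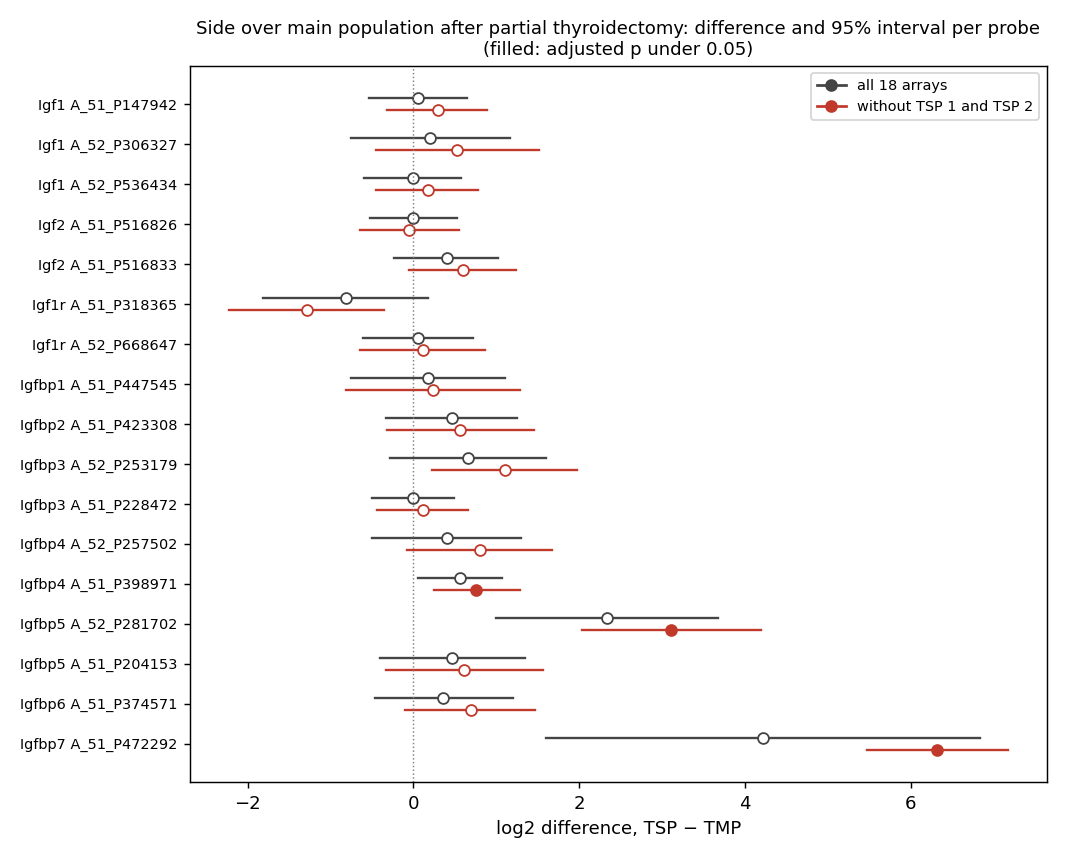
Difference TSP minus TMP (horizontal axis, log2) with its 95% interval for each of the 17 probes, with all 18 arrays and without TSP 1 and TSP 2; filled points had a limma adjusted p under 0.05. Leaving out the 2 arrays moves Igfbp7 from 4.22 to 6.32 and narrows its interval.

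The effect of surgery within the side population was the next comparison. No IGF probe passed between TSP and CSP, nor did any probe on the array in that fit (0% called by limma, 2757 of all probes and 3 of the 17 at an unadjusted p under 0.05). Without TSP 1 and TSP 2 the counts were 0 called, 1104 of all probes at an unadjusted p under 0.05, and 3 of the 17 (Igf1, Igfbp5 and Igfbp7). With all arrays the 3 probes were both bright Igf1 probes and Igfbp6. None of the 17 probes separated the 2 groups, with all arrays or without TSP 1 and TSP 2. Of all probes, 0.44% did with all arrays and 0.812% without those 2.

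Igf1 on A_51_P147942 was lower in TSP than in CSP on average, with a difference of -0.84 (SE 0.23, unadjusted p = 0.00191, limma adjusted p = 0.417). Without TSP 1 and TSP 2, which hold the lowest TSP values at -2.37 and -2.24, it was -0.61 (SE 0.24, adjusted p = 1). The means were -1.85 ± 0.41 (SD, n = 6) in TSP and -1.62 ± 0.27 (SD, n = 4) in TSP 3 to TSP 6. The second probe gave -0.62 (adjusted p = 0.49). Igfbp6 gave -0.76 (SE 0.28, adjusted p = 0.491).

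Igfbp5 pointed the other way, by 0.70 with all arrays (limma adjusted p = 0.688) and 1.48 without TSP 1 and TSP 2 (SE 0.43, adjusted p = 1). The values within slides opposed each other, 1.38 on slide 3 and -1.36 on slide 1, whose TSP arrays are TSP 1 and TSP 2. Igfbp7 was 0.64 higher in TSP on slide 3 and differed by -5.23 on slide 1. With the slide as a block and all arrays, 3 of the 17 probes were called as lower in TSP, both bright Igf1 probes and Igfbp6, where 3.66% of all probes were called and 2.1% as lower. Without TSP 1 and TSP 2 that block called none.

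**Figure D4:**
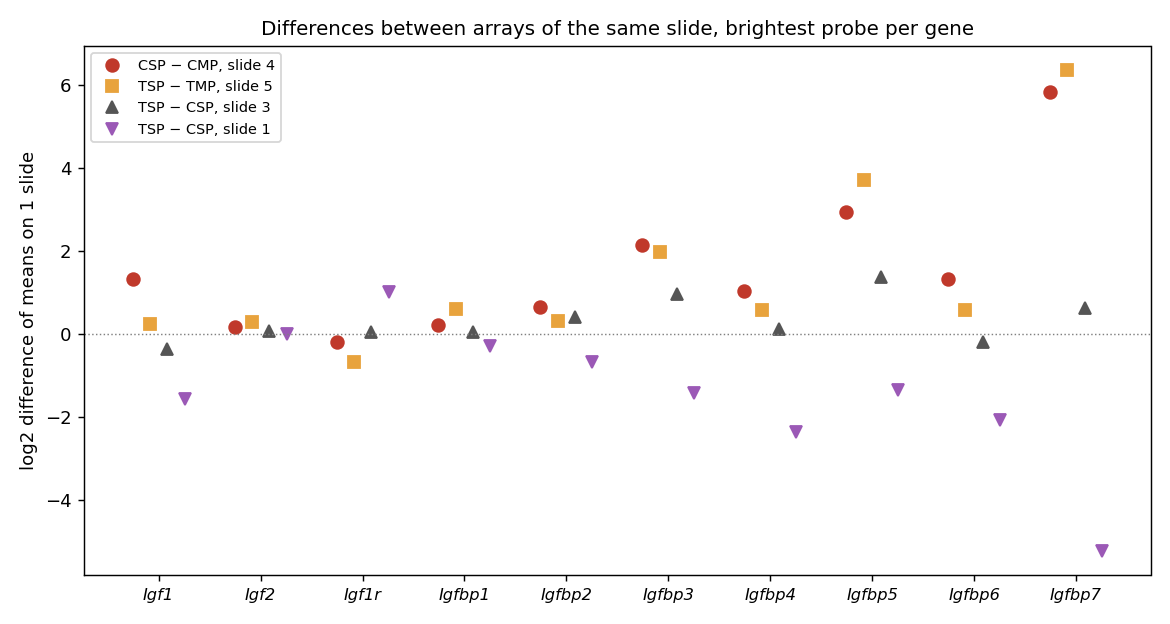
Differences of means within single slides (vertical axis, log2) for the brightest probe of each of the 10 genes (horizontal axis); symbols mark CSP minus CMP on slide 4, TSP minus TMP on slide 5, and TSP minus CSP on slides 3 and 1. Igfbp7 in CSP minus CMP is 5.84 on slide 4, while in TSP minus CSP it is 0.64 on slide 3 and -5.23 on slide 1.

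Within the main population, no IGF probe passed between TMP and CMP, and neither did any other probe (0% called by limma, with 35 of all probes and 0 of the 17 at an unadjusted p under 0.05). The groups did not overlap for 1 of the 17 probes, the dim Igf1 probe A_52_P306327 (0.18, adjusted p = 1), and for 3.18% of all probes. Igf1 differed by 0.14 and Igfbp7 by 0.13 (both adjusted p = 1). The test of whether surgery changed the gap between populations called no probe (0% of all probes). Igf1 had the lowest p among the IGF probes, with a change in the gap of -0.98 after surgery (SE 0.40, limma unadjusted p = 0.0251, adjusted p = 1), and -0.75 without TSP 1 and TSP 2. At unadjusted p under 0.05 there were 1 of the 17 probes and 299 of all. Without those 2 arrays there were 0 of the 17 and 173 of all.

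Other genes of the pathway were taken by their brightest probe, of which 14.5% over all genes were called between CSP and CMP, 7.36% as higher and 7.11% as lower. By that measure 4 of the 10 IGF genes were higher and 0 lower, with a median of 1.09 against 0.06 for all genes. Leaving out TSP 1 and TSP 2 gave 6 higher and 0 lower, where 18.7% of all genes were called, 9.9% as higher and 8.79% as lower. Proteases that cleave binding proteins, with their inhibitors, had the most calls: of 9 tested, 5 were higher, 2 lower, and the median difference was 2.74, or 2.22 with Stc1, dim in CMP, at its lower bound. Prss23, a serine protease, differed by 3.32 (SE 0.76, limma adjusted p = 0.0115), and Htra1, a secreted serine protease with an IGF-binding-protein domain, by 3.04 (SE 0.65, adjusted p = 0.00991).

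Pappa, the metalloprotease that cleaves Igfbp4, and its inhibitors did not move together. Pappa was higher by 2.74 (SE 0.54, limma adjusted p = 0.00897). The inhibitor Stc1 was well above background on all 6 CSP arrays and on no CMP array, and its CSP signal was at least 4.67-fold over the lowest signal measurable in CMP (adjusted p = 0.0105). The inhibitor Stc2 was lower, at -2.06 (SE 0.45, adjusted p = 0.01). Mmp2, a gelatinase, was higher by 3.02 (SE 0.78, adjusted p = 0.0171), and Adam12, a metalloprotease, was lower, at -1.06 (SE 0.31, adjusted p = 0.0306). Pappa and Mmp2 fell outside the naming rule and were named after their values were seen.

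Among 11 other ligands, receptors and carriers, only Igf2bp1, an RNA-binding protein of the Igf2 transcript, was called, at -2.03 (SE 0.50, limma adjusted p = 0.0151). The insulin receptor Insr (0.78, adjusted p = 0.382) and the scavenging receptor Igf2r (-0.70, adjusted p = 0.0801) did not pass. Of 34 signalling genes, 2 were higher and 3 lower, with a median of -0.13. Among the higher was Pik3r1, the regulatory subunit of PI3 kinase (1.45, SE 0.43, adjusted p = 0.0318). The lower were the receptor adaptor Grb14 (-3.10, SE 0.64, adjusted p = 0.00919), the catalytic subunit Pik3cb (-2.09, SE 0.53, adjusted p = 0.0159) and the phosphatase Ptpn11 (-1.56, SE 0.26, adjusted p = 0.00897).

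The other lists had 1 call each. In the growth hormone arm Socs1, a feedback inhibitor, was higher (1.07, SE 0.32, limma adjusted p = 0.0323; 1 of 8). Growth hormone receptor, Ghr, gave 0.06 (adjusted p = 0.918). Among proteins with an IGF-binding-protein domain Ccn3 was higher (1.93, SE 0.50, adjusted p = 0.0183; 1 of 9), and among imprinted genes Ndn was higher (1.09, SE 0.31, adjusted p = 0.0288; 1 of 9), while H19, the neighbour of Igf2, gave 0.40 (adjusted p = 0.514).

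No gene of these lists passed between TSP and TMP with all arrays, between TSP and CSP, or between TMP and CMP. When TSP 1 and TSP 2 were left out, 7.37% of all genes were higher and 6.74% lower between TSP and TMP. The protease list then had 6 higher and 1 lower, among them Mmp2 (3.56), Prss23 (3.19), Htra1 (2.90), Pappa (2.21) and Stc2 (-1.74), while Stc1, dim on all TMP arrays, was at least 5.25-fold higher. The carriers had 0 higher and 2 lower, and the signalling list 3 of each.

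**Figure D5:**
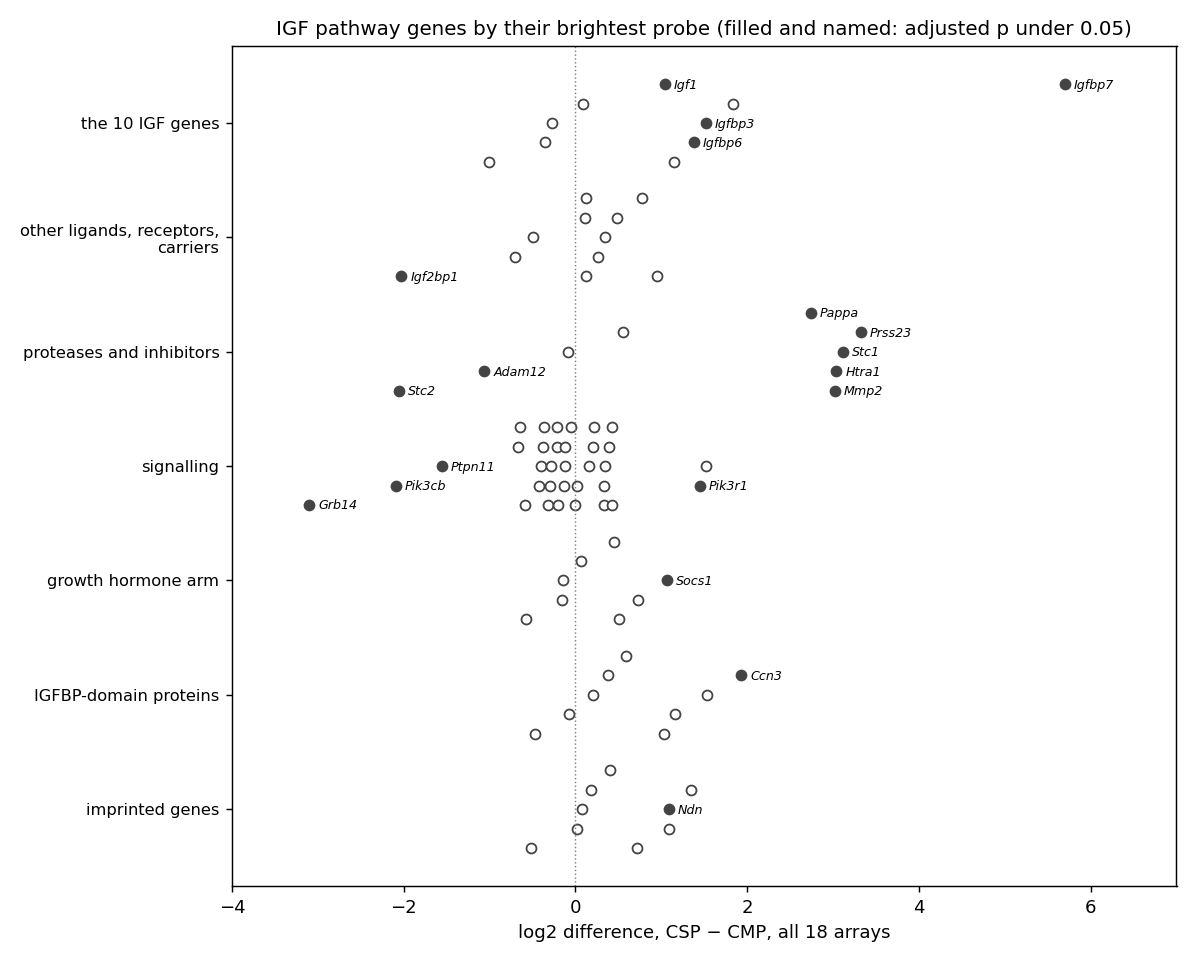
Difference CSP minus CMP (horizontal axis, log2) for the brightest probe of genes of the 10 IGF genes and 6 lists of related genes, all 18 arrays, with 1 signalling gene not drawn; filled, named points had a limma adjusted p under 0.05. Of the protease list, Pappa, Mmp2, Htra1 and Prss23 lie between 2.74 and 3.32 and Stc2 and Adam12 below 0; the point of Stc1 is a fitted value against CMP arrays none of which was well above background, and its bound is 2.22.

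The genes most like each IGF gene over the 18 arrays were found by Pearson's r among 19815 genes, as a description, since the arrays share the 4 groups. Igfbp7 was followed most closely by Gata6 and Ifi203 among the genes reported here (each 0.99), with r = 0.87 and 0.66 over the 10 side population arrays that remain without TSP 1 and TSP 2. Igf1 was followed by Impdh1, Spata31d1a and Ccno (each 0.89; 0.84, 0.79 and 0.80 over the 10). Igfbp3 was followed by Zcchc24 (0.90), Gdap10 (0.88) and Ndrg3 (0.88). Igfbp5 was followed by Kif5c (0.93), Got1 (0.91) and Camp (0.90), and Igfbp4 by Ccl19 (0.93), Wt1 (0.92) and Ly6i (0.91). Ccl19 also led for Igfbp6 (0.95, over 17 arrays). Igf1r was followed by Gpd1l (0.96), Cpne5 (0.95) and Wbp2 (0.95). Of the genes far below the tissue mixture, Igf2 was followed by Nppa, Ahsg and Tnnc2 (each 0.96; 0.93, 0.95 and 0.95 over the 10). Igfbp1 was followed by Keg1, Ighm and Ighg (each 0.98; 0.99, 0.98 and 0.97 over the 10). Igfbp2 was followed by Creb3l3 (0.95), Nr1h4 (0.93) and Camk2b (0.92), with 0.97, 0.92 and 0.90 over the 10. For these 3 genes the likeness thus held within the side population as well. The part of the slide and of the common reference in it was not tested.

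Among the IGF genes themselves, Igf1 and Igfbp7 were both higher in CSP than in CMP but opposed each other inside the side population. Over the 10 side population arrays their levels correlated at r = -0.92 (Spearman's rho -0.90), and at -0.87 without CSP 6 and TSP 3, the 2 arrays farthest from the median. Within the 6 CSP arrays r was -0.85 and rho -1, and CSP 6 had both the highest Igf1 and the lowest Igfbp7 level. Over all 18 arrays r was 0.61. CSP 3, CSP 4, TSP 3 and TSP 4, all on slide 3, held the highest Igfbp7 levels of the 10 arrays (3.59, 3.67, 4.38 and 4.16). Igf1 on these arrays was -1.29, -1.70, -1.91 and -1.77. The part of the slide in this relation was not tested. The pair was the most negative of the 45 pairs of IGF genes over the 10 arrays, of which 34 were above 0, and the next was Igf1r with Igfbp7 at -0.62. Igfbp4 and Igfbp6 correlated at 0.83 (rho 0.26), and at -0.41 without CSP 1 and CSP 2, so that relation rested on those 2 arrays. Both genes of a pair were read on the same arrays and so share dye, slide and labelling, and no p is given.

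The promoters of 3 genes called with all arrays are shown because each was higher in CSP than in CMP and held a matched motif. Igfbp3, also called as higher, held no match and is not shown. The sequences are the 250 bases before the RefSeq start in GRCm38.p6, in the direction of the gene, with the motifs in capitals.
Igfbp7, chr5:77408046-77408295, - strand: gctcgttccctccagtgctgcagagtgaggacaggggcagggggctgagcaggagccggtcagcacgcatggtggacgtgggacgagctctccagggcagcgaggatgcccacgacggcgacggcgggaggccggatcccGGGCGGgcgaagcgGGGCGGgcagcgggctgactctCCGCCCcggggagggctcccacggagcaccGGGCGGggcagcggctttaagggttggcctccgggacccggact
Igf1, chr10:87860861-87861110, + strand: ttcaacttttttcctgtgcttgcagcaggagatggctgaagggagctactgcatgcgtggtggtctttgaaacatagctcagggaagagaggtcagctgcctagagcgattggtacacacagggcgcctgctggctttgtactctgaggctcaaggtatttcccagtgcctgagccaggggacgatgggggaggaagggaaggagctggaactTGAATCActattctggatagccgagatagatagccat
Igfbp6, chr15:102143936-102144185, + strand: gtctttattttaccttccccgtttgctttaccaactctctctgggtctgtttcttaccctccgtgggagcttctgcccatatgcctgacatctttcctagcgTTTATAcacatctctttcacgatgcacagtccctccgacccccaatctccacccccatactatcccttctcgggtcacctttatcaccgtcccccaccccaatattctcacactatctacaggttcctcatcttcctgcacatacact
The capitals in Igfbp7 mark GGGCGG, the box bound by SP1, on either strand, and the matches begin 110, 96, 74 and 44 bases before the start. In Igf1 the capitals mark a match to TGANTCA, the pattern searched for AP-1 sites, with A at its open base. It begins 37 bases before the start. Those in Igfbp6 mark a match to TATAAA, the pattern searched for TATA boxes, that lies on the opposite strand 148 bases before the start. Windows of 300 bases, from 250 before to 50 after each start, were searched on both strands for these motifs and for a GATA site, searched as AGATAA, and no matches overlapped in the promoters of the 10 genes. Of the 14 RefSeq promoters of these genes, 5 held the SP1 box, as did 35.7% of all 32851 promoters. The pattern TATAAA was in 2 (13.6% of all promoters), TGANTCA in 2 (7.81%) and AGATAA in 0 (11.2%). These are matches of letters and not measured sites.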

How the data were processed

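Arrays were scanned and extracted with Agilent Feature Extraction, version 8.5.1.1 per the submitters' processing notes and 9.5.1.1 per the file headers. The deposited scanner files hold an intensity for each spot and dye, with no normalization in the mean signal and background columns used here. From these intensities, normexp background correction (offset 50) and loess within each array were run in limma 3.58.1 (R 4.3.3, data.table, version 1.17.8; figures with Python 3.11.15 and matplotlib 3.10.9). Control spots had no weight in loess, outlier spots were left out, and 43379 of 45018 spots were not controls. Spots of 1 probe were averaged. There was no dye swap, so a probe's dye bias enters all levels alike. Normexp and the offset draw dim ratios towards 0.

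A probe was tested if its Cy5 spots were well above background on 3 arrays or more. A model of 4 group means with eBayes gave the 4 differences and their interaction, adjusted by Benjamini-Hochberg over all 29803 probes. For gene lists, each of 20278 symbols was taken by its brightest probe. The fits were also run on simulated data with independent noise on each array. Those data held no slide effect and no TSP arrays like the main population, so that run cannot speak to either. Intervals are at 95%, and their width is limited by how few arrays each group has.

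The members and lists were chosen with earlier results of these data known. Every member probe is reported. Of each list, the 3 highest and 3 lowest called genes of CSP minus CMP and any called in the surgery comparisons are named, and 3 genes per member for likeness. Alternatives changed the background correction, centring, scaling, filter, probe per gene, the value table, the slide, samples in the fit, replicate block and each replicate; fits without TSP 1 and TSP 2 under other settings, and the replicate block on only the groups compared, were added after seeing the data. Same-numbered TMP and CMP samples share slides and deviated together (r = 0.66, 0.72 and 0.80). A pairing of the samples and a shared slide cannot be told apart there. TSP and CSP samples numbered 1 to 4 share slides as well, with r = 0.05, -0.02, 0.30 and 0.19.

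The submitters' own values, deposited on what appears to be a log2 ratio scale, holds 33040 probes, of which 22499 and 13 of the 17 were used as an alternative. Its columns correlate positively with the arrays, so its direction is that of Cy5 over Cy3; its centring (medians 0.13 to 0.30) is not stated. Of its columns, 9 matched their own array best, 8 another array of the same group and 1 (TSP 6) an array of another group, CSP 6. Replicate numbers here are those of the scanner files. Promoters are RefSeq's in GRCm38.p6, matched by symbol for all 10 genes. A few items that these rules would name are not reported here.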

Additional observations from a re-analysis of the deposited data

Results flagged for a closer look

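Among 34 checks of a single array against its group, 2 stood out, where chance gives about 1 in 20. The dim Igfbp5 probe A_51_P204153 was at -1.70 on CSP 1, with the nearest CSP array at -0.19, a gap of 0.7 of the group's range. The dim Igf1 probe A_52_P306327 was at 2.01 on TSP 4, where it was well above background, with the nearest TSP array at -0.09, a gap of 0.713 of the range. The brighter probes of both genes did not stand out on these arrays.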

How the results depend on the processing

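Between CSP and CMP, 4 of the 17 IGF probes were called with all arrays. The count was 2 with median centring in place of loess, 0 with scaling between arrays and 0 within slide 4, and it was 7 with the slide as a block and 8 with the slide as a random block (block correlation 0.379). Leaving out 1 array at a time gave 0 (without CMP 2) to 5, with 1 without CMP 1. Over all probes the calls numbered 3933, 553 under scaling, 7432 with the slide block, 6943 with the random block and 0 without CMP 2. Without TSP 1 and TSP 2, 6 probes were called (17.3% of all probes), 2 under scaling, and 2 (without CMP 2) to 7 leaving out 1 more array. With all arrays, calls over all probes fell from 3933 to 553 or 0 between settings. A count for a single setting is therefore no result about the IGF probes by itself. Between TSP and TMP, 0 probes were called with all arrays, 1 with the slide as a block (Igfbp5, 3.27, limma adjusted p = 0.033; 0.728% of all probes), 2 within slide 5 (0.299%), 2 without slide 1 (12%), 3 without TSP 1 and TSP 2, and 0 to 2 leaving out 1 array, the 2 being without TSP 1 or without TSP 2. Between TSP and CSP, 0 were called, 3 with the slide as a block (3.66% of all probes), 1 with the random block (0.758%) and 10 within slide 1 (36.7%), whose TSP arrays are TSP 1 and TSP 2; there Igfbp2 (-0.67), Igfbp5 (-1.36) and the dim Igf1 probe (-0.57) had the opposite sign. The cause of these shifts was not tested. Median centring moved the median of all probes from -0.04 to 0.22 between TSP and CSP and from 0.04 to -0.08 between CSP and CMP.

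With the replicate number as a block, 1 probe was called between CSP and CMP (Igfbp7), over 2288 of all probes, and 2 when only those groups were fitted. The numbers do not pair CSP with CMP, where the correlations of deviations were 0.12, -0.23 and -0.26. For TMP and CMP, where same-numbered samples share slides, the block called 0 probes, as without it, and it changed no other call count beyond 1.5 times. Of the single differences under all alternatives, 4456 stayed on the same side of the threshold, of which 215 changed sign without being called. A further 67 lost a call, 52 gained one, and 3 were called within slide 1 with the opposite sign, as given above. Dim signal limits the second probes of Igf1r, Igfbp3, Igfbp4 and Igfbp5 and the third of Igf1.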
